A study of Camelus dromedarius with 30 samples.

Results

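ACSBG1 (ENSCDRG00005018776) was chosen as a single row of the count table, 1 gene of the 22444 in the table, and was followed through all 30 kidney libraries. The gene was selected on its measured levels and fold changes in these libraries, so its levels and fold changes are given as a description, without a test. RNA was sequenced after poly(A) selection from cortex and medulla samples of the kidneys of 15 adult male dromedaries aged 4 to 5 years, which gave 6 groups of 5 libraries. Control camels drank freely throughout, dehydrated camels were kept without water for 20 days, and rehydrated camels went through the same 20 days and then drank freely for 3 days. All 3 groups had free access to food, and no genetic modification or drug was involved. Each library held between 12634346 and 20005136 read pairs counted on genes. The labels give each camel the same number in both tissues. Among the rehydrated camels the sample codes of cortex and medulla do not run in parallel, so the main fit does not pair their tissues. An alternative fit between the tissues, with the animal as a block, held all 15 camels. No library of ACSBG1 stood apart from the rest of its group by Dixon's criterion.

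ACSBG1 encodes a member of the bubblegum family of acyl-CoA synthetases. These enzymes join a fatty acid to coenzyme A, the activation step that a fatty acid needs before it can be oxidised, elongated or built into complex lipids. ACSBG1 acts on long and very long chains and is best known from brain, adrenal gland and gonads rather than from kidney. Other synthetases of the same reaction serve other chain lengths: the ACSL enzymes take long chains, the SLC27A proteins couple uptake to activation, the ACSM and ACSF2 enzymes take medium chains, and the ACSS enzymes and AACS take acetate, propionate and acetoacetate.

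In the CamDro2 annotation ACSBG1 lies on the minus strand of chromosome 27, from position 21749381 to 21796517, with 14 exons that sum to 2088 bases. No other annotated gene overlaps this span, and reads were counted by strand. The nearest neighbour is IDH3A, a subunit of the mitochondrial isocitrate dehydrogenase, which ends 1860 bases away on the opposite strand and was not called for dehydration in the medulla (log2 fold change, log2FC, 0.12, adjusted p = 0.788, edgeR). A gene was called at a Benjamini-Hochberg adjusted p-value below 0.05 over the 15376 genes with enough reads, in edgeR's quasi-likelihood test. Of the 3 annotated genes on each side, 5 had enough reads to be tested, and none of the 5 was called for dehydration against control in the cortex, where 2.45% of all tested genes were called, or in the medulla, where 1.68% were (edgeR). Their log2FC in the medulla lay between −1.86 and 0.36. WDR61, the other neighbour with a symbol, had a log2FC of −0.12 in the medulla (adjusted p = 0.693, edgeR). Over the 6 comparisons of conditions within a tissue, the only call among the 5 neighbours was ENSCDRG00005018630, which rose from dehydration to rehydration in the medulla (log2FC 0.79, adjusted p = 0.0312, edgeR), where 3.67% of all tested genes were called.

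ACSBG1 was close to undetected in the control kidney and highest in the dehydrated medulla. Levels are given as CPM, the count of read pairs scaled to the size of the library, with library sizes scaled by the trimmed mean of M-values (TMM). In control medulla the 5 libraries held 0.574, 0.411, 0.223, 0.197 and 0.167 CPM, which is 4 to 12 read pairs each. In the medulla of dehydrated camels they held 83.1, 23.7, 12.8, 39.3 and 15.9 CPM, from 299 to 1809 read pairs. Every dehydrated medulla lay above every control medulla, as it did for 1.75% of all tested genes, and the lowest of them, dehydrated camel 3, was still above all 25 libraries of the other groups. After rehydration the medulla held 4.94, 1.13, 9.38, 3.36 and 3.21 CPM. These 5 libraries lay between the control and the dehydrated medulla and overlapped neither group. Of all tested genes, 1.82% had every rehydrated medulla above every control, and 2.32% had every rehydrated medulla below every dehydrated one.

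The cortex showed the same order of conditions at a far lower level. The 5 control libraries of the cortex held 0.255, 0, 0, 0.0872 and 0.464 CPM, a total of 9 read pairs. At their depths a count of 0 allows up to 0.218 CPM in control camel 2 and 0.296 CPM in control camel 3, for counting error only. Dehydrated cortex held 3.20, 4.00, 2.72, 2.31 and 2.33 CPM, from 27 to 48 read pairs per library. All 5 dehydrated libraries lay above all 5 controls, as they did for 3.17% of all tested genes. Rehydrated cortex held 0, 0.312, 0.350, 0.0703 and 0.573 CPM, where the 0 of rehydrated camel 1 allows up to 0.229 CPM. The rehydrated cortex overlapped the control cortex and lay below every dehydrated cortex, the latter as for 2.82% of all tested genes.

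**Figure D1:**
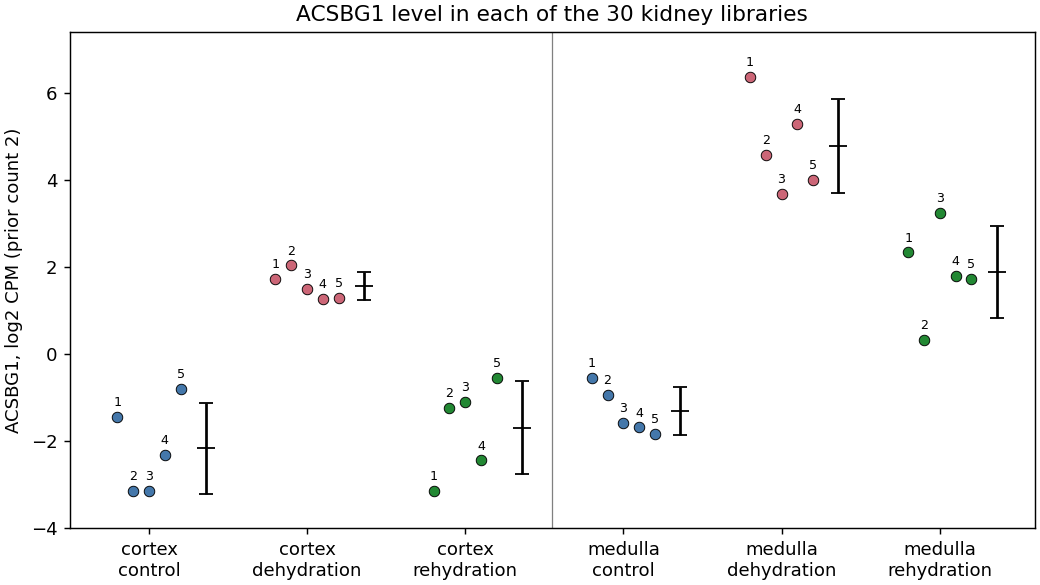
ACSBG1 in each library, as log2 CPM with a prior count of 2, by tissue and condition. Points are single libraries with their replicate number, and bars give the mean and SD of the 5 log2 values. The dehydrated medulla is highest in each of its libraries, and dehydrated cortex lies among the rehydrated medulla libraries.

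By group mean, the order was dehydrated medulla (34.95 ± 28.8 CPM), rehydrated medulla (4.41 ± 3.09), dehydrated cortex (2.91 ± 0.709), control medulla (0.314 ± 0.174), rehydrated cortex (0.261 ± 0.231) and control cortex (0.161 ± 0.199), each SD over n = 5. Dehydrated and rehydrated medulla did not overlap, and neither did dehydrated cortex and control medulla. The other neighbours in this order overlapped: rehydrated medulla with dehydrated cortex, control medulla with rehydrated cortex, and rehydrated cortex with control cortex. Without camel 1, its highest library, the mean of the dehydrated medulla was 22.9 CPM. Within the dehydrated medulla the highest library held 6.51 times the lowest, within the rehydrated medulla 8.28 times, and within the dehydrated cortex 1.73 times. The spread between camels was thus wider in the medulla than in the cortex after dehydration, with coefficients of variation of 82.5% and 24.3%.

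In the fit of all 30 libraries, the log2FC of ACSBG1 for dehydration against control was 6.76 (SE 0.54) in the medulla and 4.15 (SE 0.86) in the cortex. The ratios of the group means were 111 and 18.1. The cortex value rests on 9 read pairs in the control group, and it was 4.98 without control camel 5, the library with the most of them. The medulla value was the highest of the 13800 genes whose mean was 1 CPM or more, and the cortex value ranked 10 among the same genes. From dehydration to rehydration the log2FC was −3.02 (SE 0.40) in the medulla, −2.42 without dehydrated camel 1, and −3.44 (SE 0.75) in the cortex. Rehydrated against control medulla gave 3.73 (SE 0.59), a ratio of means of 14.0 and again the highest value among these genes, whereas rehydrated against control cortex gave 0.71 (SE 1.38), which was 0.16 without rehydrated camel 5 and 1.54 without control camel 5. These comparisons share their control and dehydrated libraries within a tissue. Control medulla against control cortex gave 0.99 (SE 1.23), with overlapping libraries, and was 1.81 without control cortex 5. Over the alternative fits and each library left out, the medulla log2FC for dehydration stayed between 6.15 and 7.07, and the lowest of these values was the one without dehydrated camel 1.

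In whole tissue, more RNA per cell and more cells that carry the transcript cannot be told apart. Labels were checked against cell type markers, of which a minority had a symbol in the table. Transcripts of the proximal tubule, a cortical segment, summed to 1545 to 2619 CPM in control cortex and 44.6 to 524 CPM in control medulla (SLC13A3 and SLC22A8, 2 of 10 markers). Transcripts of the thick ascending limb summed to 3572 to 5784 CPM in control cortex and 15073 to 21088 CPM in control medulla (UMOD, PPP1R1A and CLDN10, 3 of 6 markers). Both sums separated the tissues in the direction of the labels. Within the second sum, UMOD was higher in control medulla, at a mean of 16736 CPM against 3609 CPM in control cortex. PPP1R1A was not called (adjusted p = 0.133, edgeR). CLDN10 went the other way, at 324 CPM in control medulla and 529 CPM in control cortex (adjusted p = 0.000381, edgeR). SYNPO, the only podocyte marker with a symbol (1 of 7), was higher in control medulla (6.26 to 12.6 CPM) than in control cortex (0.887 to 3.40 CPM), although podocytes belong to the cortex.

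Some marker sums and single markers differed with dehydration, in either direction, and their part in the change of ACSBG1 was not tested. In the cortex, the proximal tubule sum was 621 to 1122 CPM after dehydration and 1545 to 2619 CPM in control. The endothelial sum (PECAM1, CDH5 and VWF, 3 of 7 markers) was 356 to 423 CPM in dehydrated cortex and 219 to 269 CPM in control cortex. Of its members PECAM1 was called as higher there, at means of 310 and 185 CPM (adjusted p = 0.00431, edgeR). CDH5 (adjusted p = 0.388) and VWF (adjusted p = 0.614, edgeR) were not called, and their libraries overlapped. In the medulla, the single intercalated cell marker with a symbol, ATP6V1B1 (1 of 7), was 110 to 168 CPM in dehydrated and 220 to 288 CPM in control libraries. It was 267 to 324 CPM in dehydrated and 349 to 435 CPM in control cortex. In the medulla, SLC13A3 of the proximal tubule fell from a mean of 280 CPM to one of 96.4 CPM (log2FC −1.54, adjusted p = 0.0491, edgeR), with overlapping libraries. HSD11B2, a marker of the principal cells of the collecting duct, fell from 157 to 74.7 CPM (log2FC −1.07, adjusted p = 0.0155, edgeR). The other principal cell markers with a symbol (3 of 8 with HSD11B2), AQP2 and AQP3, were not called there, at means of 502 and 171 CPM in dehydrated and 286 and 66.4 CPM in control medulla. The medullary sums of the proximal tubule (27.6 to 172 CPM after dehydration against 44.6 to 524 CPM in control), the thick ascending limb (11329 to 19101 CPM against 15073 to 21088 CPM), the endothelium (438 to 695 CPM against 443 to 471 CPM) and the principal cells (449 to 1182 CPM against 329 to 718 CPM) overlapped between dehydrated and control camels.

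Few markers of adrenal gland and glia, where ACSBG1 is best known, had a symbol, and a part of such cells in its level was not tested. Their sums overlapped between dehydrated and control medulla. STAR, which brings cholesterol into steroid-producing mitochondria, held 0.157 to 0.811 CPM in dehydrated and 0.723 to 1.18 CPM in control medulla. With FDX1, which many tissues express, the adrenal sum (2 of 12 markers) was 12.5 to 23.2 CPM in dehydrated and 18.9 to 32.6 CPM in control medulla. The glial sum (S100B and MBP, 2 of 11 markers) was 49.4 to 72.7 CPM in dehydrated and 58.1 to 76.1 CPM in control medulla. The fat cell sum (ADIPOQ and FABP4, 2 of 7 markers) was 1.83 to 10.9 CPM in dehydrated and 0.617 to 4.12 CPM in control medulla. SYNPO was 6.43 to 15.6 CPM in dehydrated medulla, and the red blood cell sum (HBB and AHSP, 2 of 7) was 1.51 to 4.16 CPM in dehydrated and 1.87 to 25.6 CPM in control medulla. No marker of urothelium or leukocytes had a symbol here.

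None of the 11 other synthetases with a symbol rose with ACSBG1 at the threshold used in the dehydrated medulla, and 5 fell. Besides ACSBG1, 11 of 25 listed acyl-CoA synthetase genes had a symbol in the table, and all 11 were tested. For dehydration against control in the medulla, 5 of the 11 fell and 0 rose. Of all tested genes 1.68% were called in this comparison. Because symbols came from gene lists of the article, genes with a symbol were called more often, 3.88% of them as lower and 1.78% as higher. The median log2FC of the 11 genes was −0.63, beside 0.01 over all tested genes.

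Of the 5 genes that fell, 3 serve short chains. ACSS1, the mitochondrial acetyl-CoA synthetase, fell from 369 to 188 CPM in the medulla (log2FC −0.97, SE 0.19, adjusted p = 0.00454, edgeR). AACS, which activates acetoacetate, had a log2FC of −0.93 (adjusted p = 0.00257), and ACSS2, the acetyl-CoA synthetase of cytosol and nucleus, one of −0.83 (adjusted p = 0.017, edgeR). SLC27A3, of the fatty acid transport protein family, had a log2FC of −1.07 (adjusted p = 0.00926), and ACSF2 one of −0.71 (adjusted p = 0.00874, edgeR). The call of ACSS2 was lost in 5 of 19 alternative fits (adjusted p from 0.00218 to 0.104), that of AACS and of ACSF2 in 1 each, and those of ACSS1 and SLC27A3 in none. A fit of the compared groups alone called 2 of the 11.

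Among the ACSL and SLC27A genes with a symbol, SLC27A3 was lower with dehydration in the medulla, as given above. ACSL3, ACSL4, ACSL5 and SLC27A4 were not called there. The log2FC was −0.11 (SE 0.24) for ACSL3, 0.03 (SE 0.35) for ACSL4, −0.16 (SE 0.17) for ACSL5 and 0.09 (SE 0.15) for SLC27A4. Their adjusted p-values (edgeR) lay between 0.742 and 0.979, which does not show that they were unchanged. ACSL1, SLC27A1, SLC27A2 and ACSBG2 had no symbol in the table and were not analysed here.

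From dehydration to rehydration in the medulla, where ACSBG1 was lower, 4 of the 11 genes rose and 0 fell, beside 3.67% of all tested genes called, and 4.12% of those with a symbol called as higher and 3.08% as lower. The 4 were AACS (log2FC 0.84), ACSS2 (0.77), ACSS1 (0.74) and SLC27A3 (0.86), with adjusted p-values from 0.00594 to 0.0312 (edgeR). The count rests on few libraries: it was 1 without dehydrated camel 4, 2 without dehydrated camel 2 or camel 3, and 0 in a fit of the compared groups alone. In rehydrated against control medulla, edgeR called 0 of the 11, with 1 at an unadjusted p-value under 0.05, and DESeq2 and limma-voom called 0 (0.813% of all tested genes called by edgeR). In rehydrated against control cortex edgeR called 0 of the 11, with 3 at an unadjusted p-value under 0.05, limma-voom called 0 and DESeq2 called 1 (0.0845% of all tested genes called by edgeR).

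In the cortex, ACSF2 was the 1 gene of the 11 called for dehydration, as lower (log2FC −0.74, adjusted p = 0.00571, edgeR), beside 2.45% of all tested genes, and 3.91% of those with a symbol called as lower. A fit of the compared groups alone called 3 of the 11. SLC27A3 had a log2FC of 0.75 in the cortex (adjusted p = 0.0897, edgeR). Its response differed between the tissues, by −1.82 (SE 0.33) in medulla minus cortex (adjusted p = 0.0182, edgeR's interaction contrast, which treats both tissues of a camel as independent). Of the 52 list genes compared in this way it was the only one called, and 7 of 15376 genes were. From dehydration to rehydration in the cortex ACSM3 rose (log2FC 1.43, adjusted p = 0.0341, edgeR), beside 2.32% of all tested genes, and 3.77% of those with a symbol called as higher. This call was lost when any of 6 single libraries was left out.

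**Figure D2:**
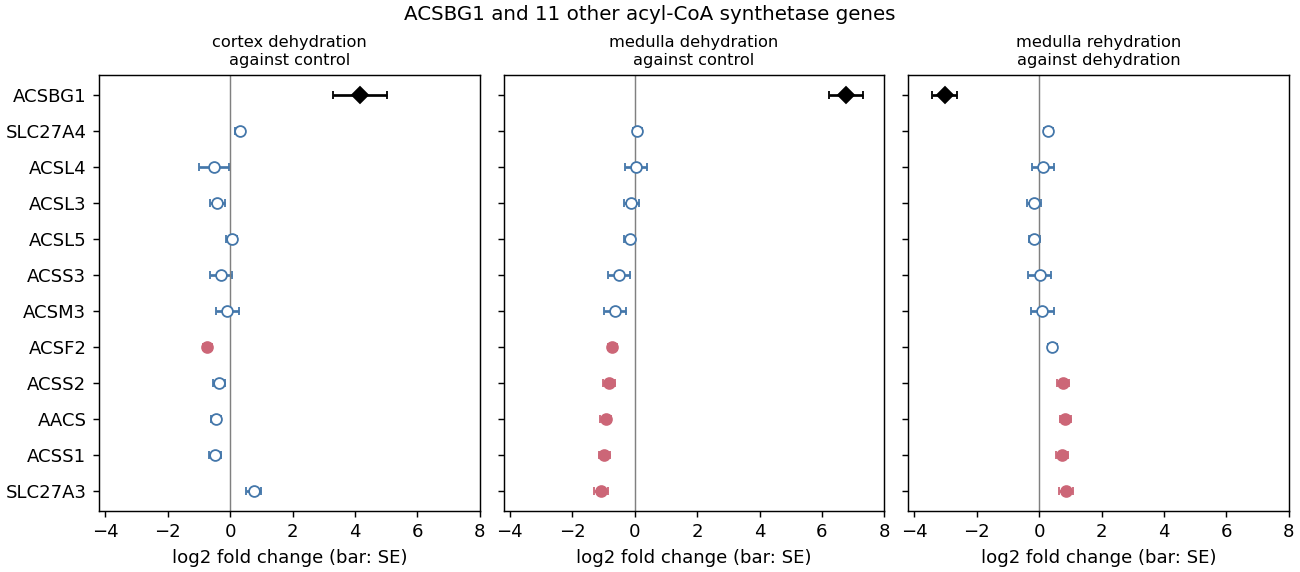
Fitted log2 fold change of ACSBG1 (black diamonds) and of the 11 other acyl-CoA synthetase genes with a symbol, for 3 comparisons. Bars are standard errors, filled red circles mark genes with an adjusted p-value under 0.05, and open blue circles mark the rest. ACSBG1 is at 4.15, 6.76 and −3.02, while the 5 filled circles of the medulla lie from −1.07 to −0.71 with dehydration.

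Per base of exon and by group mean, ACSBG1 passed from the least to a middle place among the 12 synthetases with a symbol. Its mean level in RPKM, the CPM divided by the exon length in kilobases, was 0.151 in control medulla, the lowest of the 12 synthetase genes, and 16.7 in dehydrated medulla, where it ranked 7. The dehydrated medulla libraries ran from 6.11 RPKM in camel 3 to 39.8 RPKM in camel 1. By group mean, ACSBG1 made up 0.0281% of the summed RPKM of the 12 genes in control medulla, 4.68% in dehydrated medulla and 0.466% in rehydrated medulla. ACSS1 was the highest of the 12 in the medulla, at 213 RPKM in control and 109 RPKM in dehydrated camels. In the cortex ACSS3, which activates propionate, was the highest, and ACSBG1 ranked 12 in control, 11 in dehydrated (1.40 RPKM) and 12 in rehydrated camels.

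Among other genes of fatty acid metabolism, more fell than rose with dehydration, and most were not called. Of 99 genes in 3 lists, 42 had a symbol and 41 were tested, FABP6 having too few reads. In the medulla 2 rose and 8 fell, where 1.68% of all tested genes were called, and 1.78% of those with a symbol as higher and 3.88% as lower. Synthesis, elongation and desaturation accounted for most of these, with 5 of 14 tested genes lower and 1 higher. SCD, the desaturase that makes oleic acid, had a log2FC of −2.07 (adjusted p = 0.000213, edgeR), and THRSP, a regulator of lipid synthesis, one of −2.31 (adjusted p = 0.0183). ELOVL6, which elongates palmitic acid, had a log2FC of −1.22 (adjusted p = 0.0252), ACLY, which makes cytosolic acetyl-CoA, one of −0.58 (adjusted p = 0.0391), and HSD17B12, of the elongation cycle, one of −0.54 (adjusted p = 0.0391, edgeR). HACD4, a dehydratase of the same cycle, was the gene that rose (log2FC 1.18, adjusted p = 0.00454, edgeR).

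Downstream of activation, 2 of 17 tested genes of acyl-CoA handling and oxidation fell in the medulla, beside the same 3.88% of genes with a symbol. These were CPT2, of the mitochondrial carnitine shuttle (log2FC −0.45, adjusted p = 0.0254), and the thioesterase ACOT11 (log2FC −1.38, adjusted p = 0.0319, edgeR), and 0 rose. Among 10 tested genes of uptake, binding and storage, the lipid droplet protein PNPLA3 rose (log2FC 1.56, adjusted p = 0.0491) and the nuclear receptor PPARD fell (log2FC −0.50, adjusted p = 0.0247, edgeR). In place of 10, 2 of the 41 genes were called in the medulla without dehydrated camel 4, 3 without dehydrated camel 3 or control camel 3, 5 without control camel 1 or control camel 5, and 6 without dehydrated camel 1. Each of these 10 calls other than that of SCD was lost in at least 1 of 19 alternative fits. That of PNPLA3 was lost in 16, those of ACLY and HSD17B12 in 13 each, ACOT11 in 10 and CPT2 in 9. The calls of ELOVL6 and PPARD were lost in 6 each, that of THRSP in 4 and that of HACD4 in 1.

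In the cortex 1 of the 41 rose and 6 fell, where 2.45% of all tested genes were called, and 4.44% of those with a symbol as higher and 3.91% as lower. SCD (log2FC −2.31, adjusted p = 0.000113), THRSP (−2.73, adjusted p = 0.00025), HSD17B12 (−0.90, adjusted p = 0.000531) and CPT2 (−0.45, adjusted p = 0.0193, edgeR) were lower there as they were in the medulla. ACADM, of medium-chain oxidation (−1.02, adjusted p = 0.0306), and HACD2, of the elongation cycle (−0.82, adjusted p = 0.0227, edgeR), were lower, and FA2H, which hydroxylates fatty acids, was higher (0.40, adjusted p = 0.0444, edgeR). The count was 3 without dehydrated camel 3, dehydrated camel 5 or control camel 4, and 4 without dehydrated camel 2 or dehydrated camel 4. The calls of SCD, THRSP and HSD17B12 held in all 19 alternatives. That of FA2H was lost in 12 of them, ACADM in 7, HACD2 in 6 and CPT2 in 3.

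The genes most like ACSBG1 in the medulla were named from Pearson's r of log2 CPM over the 15 medulla libraries, among tested genes that had a symbol and averaged 1 CPM or more. These libraries come from 3 conditions, so r holds the difference between conditions as well as that between camels, and no p is given. Over the 13877 genes that averaged this much, 90% of the r values lay between the 5th percentile of −0.51 and the 95th of 0.49. Above 0.8 lay 9 genes, of which 7 had a symbol, and below −0.8 lay 29, of which 25 had one.

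KCNJ8, the pore of a potassium channel closed by ATP, was the most alike (r = 0.89, rho = 0.91). It held 19.2 to 24.6 CPM in control, 29.8 to 44.4 CPM in dehydrated and 25.5 to 30.4 CPM in rehydrated medulla. Its dehydrated libraries lay above all controls, as for 1.75% of all tested genes. The choice by r over these same libraries favours such a separation, so it is no further support. HAL (r = 0.86), which breaks down histidine, NCAPH (0.85), a condensin subunit, WASF1 (0.85), a regulator of actin assembly, and BBS9 (0.84), of the ciliary BBSome, followed. CHI3L1 (0.83), a secreted chitinase-like protein, was 3.26 to 13.6 CPM in control, 32.1 to 191 CPM in dehydrated and 30.9 to 121 CPM in rehydrated medulla. C7 (0.80), a complement component, CPNE1 (0.80), a calcium-dependent membrane-binding protein, INPPL1 (0.78), an inositol phosphatase, and EMB (0.78), a partner of monocarboxylate transporters, completed the 10. With any single library left out, r of these 10 genes stayed between 0.74 and 0.91.

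At the opposite end, SC5D (r = −0.93) and MSMO1 (−0.92) encode late enzymes of cholesterol synthesis, and IDI1 (−0.90) an isomerase of its early part. BDH1 (−0.90) interconverts the ketone bodies. SC5D held 190 to 271 CPM in control, 52.3 to 85.3 CPM in dehydrated and 95.1 to 141 CPM in rehydrated medulla. Its 3 groups did not overlap, in the reverse order of ACSBG1, which the choice by r over these same libraries favours. MSMO1 held 112 to 165 CPM, 37.3 to 45.1 CPM and 70.7 to 113 CPM in the same groups, of which control and rehydrated medulla overlapped. With any single library left out, r of these 4 genes stayed between −0.94 and −0.87.

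**Figure D3:**
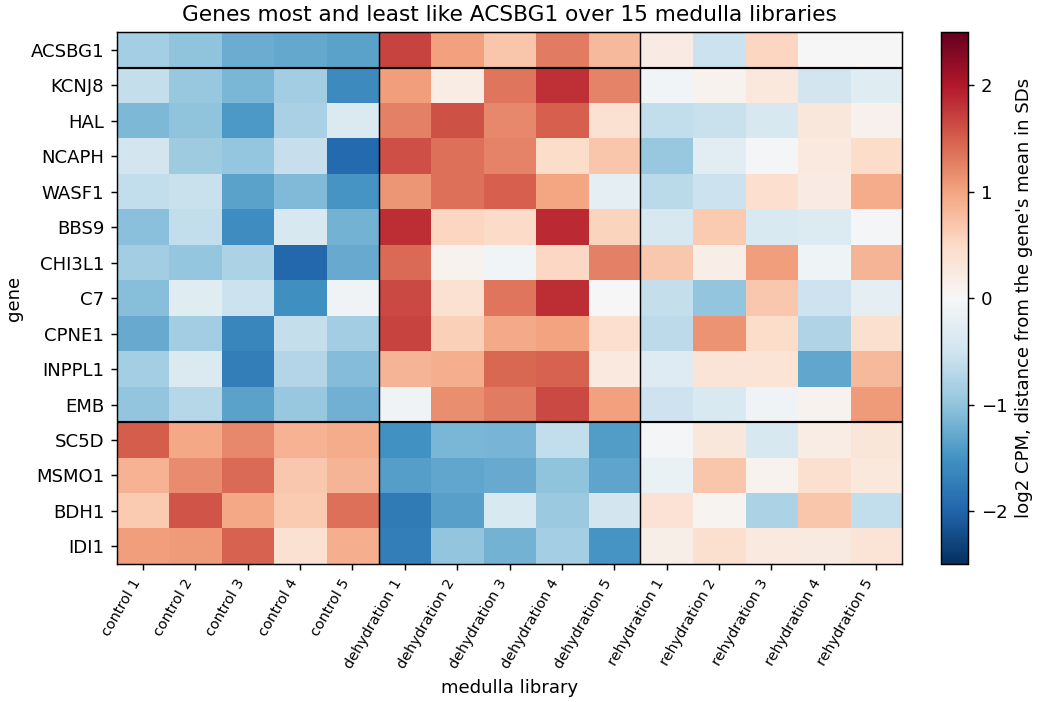
Level of ACSBG1, the 10 genes with the highest r and 4 of those with the lowest r over the 15 medulla libraries. Colour gives log2 CPM as the distance from the gene's own mean in SDs, and lines separate the conditions and the sets. Control libraries lie below the mean of ACSBG1 and of the 10 genes, and above that of the 4. Dehydrated libraries lie on the other side, except library 5 for WASF1 and C7, library 3 for CHI3L1 and library 1 for EMB. The r values run from 0.78 to 0.89 and from −0.93 to −0.90.

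The genes were chosen in the medulla, and the cortex libraries, which come from the same camels, were then tested. Their r in the medulla holds the difference between conditions, so calls in the cortex are no independent support for a link with ACSBG1. The shares given beside them are over all tested genes with a symbol, not over genes that changed in the medulla. For dehydration against control in the cortex, 3 of the 10 like genes rose and 0 fell, and SC5D, MSMO1 and IDI1 fell, beside 4.44% of tested genes with a symbol called as higher and 3.91% called as lower. KCNJ8 rose from 4.68 to 11.1 CPM (log2FC 1.25, SE 0.21, adjusted p = 0.00137, edgeR), CPNE1 had a log2FC of 0.55 (adjusted p = 0.00465) and WASF1 one of 1.85 (adjusted p = 0.0426, edgeR). IDI1 fell (log2FC −1.61, adjusted p = 0.00236), as did SC5D (−1.42, adjusted p = 0.00571) and MSMO1 (−1.49, adjusted p = 0.0193, edgeR). BDH1 did not pass (−0.42, adjusted p = 0.282, edgeR), and neither did HAL, NCAPH, BBS9, CHI3L1, C7, INPPL1 and EMB, whose log2FC lay between −0.02 and 0.99. For HAL and EMB this says little, as they held at most 15 and 14 read pairs in any cortex library. The call of WASF1 was lost in 12 of 19 alternatives and that of MSMO1 in 5, and the other 4 calls held in all 19.

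From dehydration to rehydration in the cortex, SC5D, MSMO1 and IDI1 rose, with log2FC from 1.19 to 1.48 and adjusted p-values from 0.00604 to 0.0492 (edgeR), and KCNJ8 fell (−1.06, adjusted p = 0.00488). Of the tested genes with a symbol 3.77% were called as higher and 4.60% as lower in that comparison. These 4 calls were 2 without dehydrated camel 2, dehydrated camel 4 or rehydrated camel 1, and 0 in a fit of the compared groups alone. Across the 15 cortex libraries, r with ACSBG1 was −0.86 for IDI1, −0.75 for SC5D and −0.72 for MSMO1, where 90% of 13875 genes lay between −0.56 and 0.63. Among the like genes it was highest for INPPL1 (0.80), CPNE1 (0.77) and KCNJ8 (0.69), and lowest for HAL (0.22), CHI3L1 (0.20) and EMB (0.11). HAL and EMB held at most 15 and 14 read pairs in any cortex library. At such counts a low r does not show a difference between the tissues.

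THRSP and WNT7B, which also stood out with dehydration, differed in their r with ACSBG1, which again holds the difference between conditions. Across the 3 conditions THRSP was opposite in both tissues, with r = −0.72 in the medulla and −0.86 in the cortex. WNT7B, a secreted signalling ligand, had r = 0.73 in the cortex, where its log2FC with dehydration was 4.61. In the medulla its r was 0.13 and its levels overlapped, at 83.0 to 161 CPM in control and 109 to 188 CPM in dehydrated camels. For deviations from the group means, r of THRSP was −0.22 in the medulla and −0.31 in the cortex. That of WNT7B was −0.16 in the medulla and 0.54 in the cortex.

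**Figure D4:**
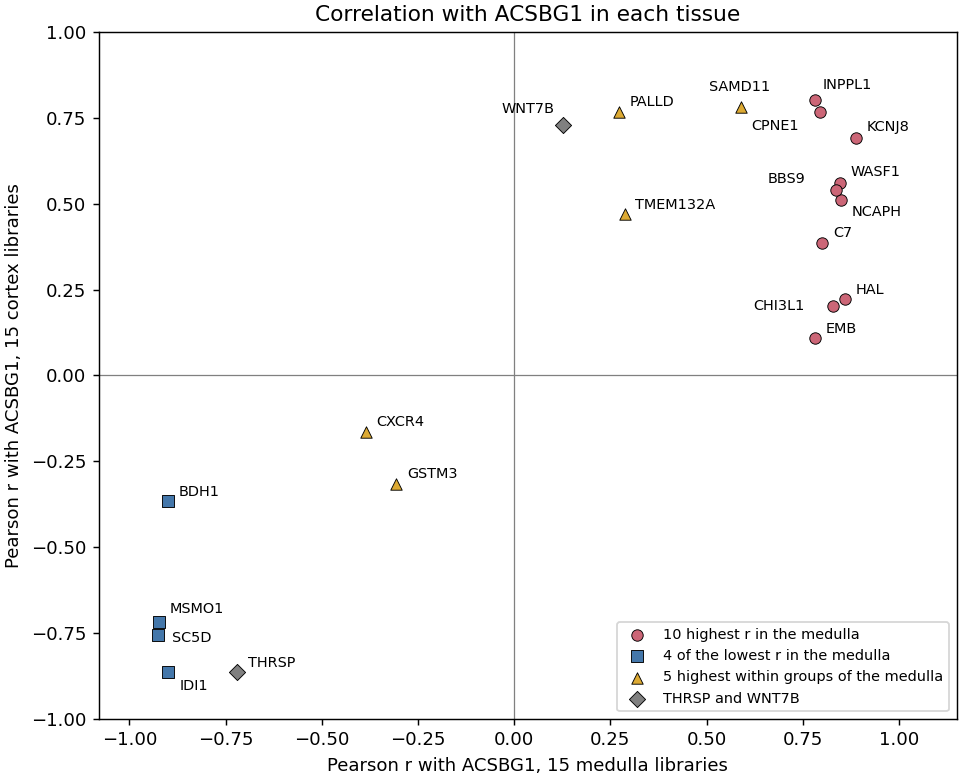
Pearson's r with ACSBG1 over the 15 medulla libraries (horizontal) and over the 15 cortex libraries (vertical) for the genes named by likeness. Symbols give the set a gene was named in. Points run from IDI1 at −0.90 and −0.86 to KCNJ8 at 0.89 and 0.69, while HAL, CHI3L1 and EMB lie between 0.11 and 0.22 in the cortex. HAL and EMB held at most 15 and 14 read pairs per library there.

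Between camels of one condition, other genes had the highest r with ACSBG1. When the mean of each group was taken from each library, r of these deviations was 0.21 for KCNJ8 and −0.22 for SC5D, and only CHI3L1 (0.56) and C7 (0.54) of the 10 like genes exceeded 0.5. By this measure 90% of 13877 genes lay between −0.54 and 0.56, 16 lay above 0.8 and 8 below −0.8. The genes named next are the highest of 3696 with a symbol, picked from these same values, so their r is no test. The highest with a symbol were SAMD11 (0.86), the chemokine receptor CXCR4 (0.81), TMEM132A (0.80), the actin-associated PALLD (0.80) and the glutathione transferase GSTM3 (0.80). None of these 5 was among the 10 like genes, and their r over all 15 medulla libraries lay between −0.39 and 0.59. SAMD11 was the one with a high r of deviations in the cortex as well (0.70), where the others lay between −0.06 and 0.46.

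The r of deviations of these genes rested in part on the dehydrated camel with the most ACSBG1. In medulla library 1 of the dehydrated camels, TMEM132A was at 22.1 CPM, beside 7.25 to 9.70 CPM in the other 4. GSTM3 was at 44.1 CPM there, beside 16.5 to 22.3 CPM, and PALLD at 210 CPM, beside 159 to 174 CPM. Without that library, r of the deviations was 0.82 for SAMD11, 0.78 for PALLD, 0.73 for CXCR4, 0.72 for TMEM132A and 0.71 for GSTM3. In the 10 control and rehydrated medulla libraries alone, r with ACSBG1 was highest among the named genes for CHI3L1 (0.92), TMEM132A (0.91) and SAMD11 (0.91), followed by KCNJ8 (0.86). Over these 10 libraries high values were common: the 95th percentile of r was 0.77, and 522 of 13877 genes lay above 0.8.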

How the data were processed

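The gene, the gene lists and the comparisons were chosen with earlier results of these data known. The authors trimmed reads with BBDuk, aligned them to CamDro2 and deposited raw counts of read pairs per gene (featureCounts 1.6.2, reverse-stranded, Ensembl release 100). The methods name STAR and the table Rsubread as aligner. Totals were 12634346 to 20005136 per library. At this depth the variation between camels (biological coefficient of variation 34.0%) exceeds counting error except in low counts, such as ACSBG1 in control kidney. The analysis used R 4.3.3 and edgeR 4.0.16, with genes kept by filterByExpr (at least 10 counts, 15 in total), TMM, 1 fit of 30 libraries in 6 groups, quasi-likelihood tests (adjusted deviances), and Benjamini-Hochberg adjustment over 15376 genes. A prior count of 2 was used for log2 CPM. Standard errors were derived from the log2FC and the F statistic. Scripts were tested on simulated data.

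Symbols for 3792 gene identifiers came from the article's supplementary lists and a RefSeq table, so genes that the article lists as changed are named more often than others, and most list genes without a symbol were not analysed here.

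Named genes are ACSBG1, its 3 nearest neighbours on each side, the 10 highest and 5 lowest by r in the medulla (1 of the lowest is not reported here), the 5 highest by deviations, list genes called for dehydration in either tissue, fixed ACSL and SLC27A genes, THRSP, WNT7B and markers. SLC27A3 in the cortex and ACSM3 were named after their values were seen. Alternatives were DESeq2 1.42.0, limma-voom (limma 3.58.1), DESeq2's size factors, no filter, a mean of at least 1 CPM, only the groups compared, a block for the replicate number or animal, a covariate for RNA integrity, a threshold of 0.01, and each library left out. edgeR's earlier quasi-likelihood method, and all alternatives for the cortex tests of like genes, were added after seeing the data.

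Samples were grouped by the labels. The labels number a camel alike in both tissues, so the animal was the block between tissues, also for the rehydrated camels, whose pairing is in doubt. Within a tissue, camels of different conditions share only a number.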

Additional observations from a re-analysis of the deposited data

Results flagged for a closer look

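In 258 combinations of a named gene and a group of 5, 19 had 1 library apart from the other 4 by Dixon's 95% criterion, which chance flags in about 1 of 20. None of them was ACSBG1. Values are CPM. Dehydrated medulla 1 was apart for TMEM132A (22.1), PALLD (210.4), GSTM3 (44.1) and ACSS1 (114, others 194 to 222), and dehydrated medulla 2 for ACOT11 (2.49). In rehydrated medulla, camel 3 was apart for CXCR4 (11.3, others 6.01 to 6.29) and camel 5 for EMB (3.77) and PNPLA3 (2.26). Control medulla 2 was apart for ACLY (94.0). In dehydrated cortex, camel 1 was apart for HACD2 (17.0) and camel 3 for ACOT11 (5.73) and ACSS1 (170.2). In rehydrated cortex, camel 2 was apart for HAL (0.390), camel 4 for HACD2 (20.4) and camel 5 for BBS9 (11.3). In control cortex, camel 1 was apart for PNPLA3 (0.255, others at 0), camel 2 for ELOVL6 (17.0) and camel 3 for CPT2 (100.3, others 142 to 150) and HSD17B12 (362). The dehydration response of SLC27A3 differed between the tissues, by −1.82 on the log2 scale in medulla minus cortex (adjusted p = 0.0182, edgeR's interaction contrast).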

How the results depend on the processing

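ACSBG1 kept the sign of its fold changes in every alternative run. With 1 library left out, its log2FC ranged from 3.78 to 4.98 for dehydration in the cortex. Counts of calls moved more, and the cause was not tested where an alternative uses all libraries. At an adjusted p-value under 0.01 the calls were 3 of 41 other fatty acid genes for dehydration in the cortex, 2 in the medulla and 1 from dehydration to rehydration in the medulla, and 0 synthetases from dehydration to rehydration in the cortex and 1 in the medulla, with 2 of the 14 like and opposite genes from dehydration to rehydration in the cortex. With only the groups compared, which leaves fewer libraries, they were 3 synthetases for dehydration in the cortex, 2 in the medulla, and 0 from dehydration to rehydration in either tissue. In those fits 3 other fatty acid genes were called for dehydration in the medulla, 1 from dehydration to rehydration there, and 0 of the 14 like and opposite genes from dehydration to rehydration in the cortex. Other fatty acid genes called for dehydration in the medulla were 6 without a filter and 6 by edgeR's earlier method. DESeq2 called 12 of them for dehydration in the cortex and 1 synthetase for rehydration against control there, and limma-voom called 0 synthetases and 1 like or opposite gene from dehydration to rehydration in the cortex.

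With each library left out in turn, synthetases called ranged from 1 to 4 (rehydration against dehydration, medulla) and from 0 to 1 (the same, cortex). Other fatty acid genes called ranged from 3 to 7 for dehydration in the cortex, from 2 to 8 in the medulla, and from 2 to 7 for rehydration against dehydration in the medulla (2 without dehydrated camel 3, 3 without dehydrated camel 4 or rehydrated camel 1). Like and opposite genes called ranged from 2 to 5 for rehydration against dehydration in the cortex. Of the 10 genes most like ACSBG1, 6 to 9 remained with 1 library left out (6 without control camel 4, dehydrated camel 4 or rehydrated camel 5), and 0 without the 5 dehydrated libraries or by deviations from the group means. ACSL4 had a log2FC of −0.0051 with RNA integrity as a covariate, and from −0.16 to 0.21 with 1 library left out, and SLC27A4 from −0.00095 to 0.15.

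The replicate number as a block, within a tissue, gave log2FC of 6.62 for ACSBG1 in dehydrated against control medulla and 4.20 in the cortex, and 3 calls of single genes were lost with it. Low counts of ACSBG1 in control and rehydrated cortex (0 to 8 read pairs) limit its folds there.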
